A study of Mus musculus with 6 samples.

Results

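Neutrophils that infiltrate tumours, and the related cells called granulocytic myeloid-derived suppressor cells, can restrain T cells, and the 9 genes described here (Arg1, Arg2, Nos2, Cd274, Il4ra, Cd84, Prok2, Tgfb1 and Slc27a2) are named for that state. They were taken by symbol from a table of 51789 mouse genes, and all 9 were found. The table holds 6 libraries of messenger RNA from mouse bone marrow neutrophils isolated with beads against Ly6G, a surface protein of mouse neutrophils, and read with the Lexogen QuantSeq kit, which makes a short tag at the 3′ end of each transcript. The condition label is WT (Snph control) for 3 libraries and KO (Snph knockout) for the other 3, Snph being the gene of syntaphilin, which anchors mitochondria to microtubules. The series title sets the work in neutrophil migration in cancer, while the labels of these samples name bone marrow and give no tumour, treatment, strain, age or sex. The way the knockout was made was not given in the sources used. Nor do the labels tie the samples to separate animals, so a p-value here reflects the spread among 6 libraries, some or all of which may be technical.

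Suppressive myeloid cells are known for a handful of routes. Arginase 1, arginase 2 and inducible nitric oxide synthase consume arginine, which T cells need. PD-L1 (Cd274) engages the inhibitory receptor PD-1 on T cells, TGF-β1 (Tgfb1) dampens lymphocyte activation, and fatty acid transport protein 2 (Slc27a2) takes up lipid for the synthesis of prostaglandin E2. The interleukin 4 receptor α chain (Il4ra) and the SLAM family receptor CD84 (Cd84) mark such cells at their surface, and prokineticin 2 (Prok2, also called Bv8) is a secreted factor that promotes vessel growth and cell mobilisation.

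Total counts ran from 7018388 to 9664381 per library, and 14732 to 15664 genes had a count. All 14 neutrophil markers examined were detected, led by S100a8 at 116000 ± 6650 CPM in the WT-labelled libraries (counts per 1e6 counts, scaled between libraries by TMM factors as all CPM values here unless said otherwise, SD, n = 3). The targeted gene went against the labels: Snph had 0 counts in each library labelled WT and 5, 2 and 8 counts in KO 1, 2 and 3 (p = 0.1 by exact permutation of the log2(CPM + 0.1) values, two-sided, the smallest that 3 against 3 allow). The labels do not say which part of the gene was deleted, and each direction below follows the labels. Whether the labels were exchanged between the groups was not tested, and if they were, the sign of every fold change given here would turn. On the first principal component (27.9% of variance) KO 3, at -3.91, lay between the other KO-labelled libraries (23.5 and 29.2) and the WT-labelled ones (-18.3 to -13.2). Markers of macrophages were lower in the KO-labelled libraries (11 of 12 passed the test, summed level 1280 to 1350 CPM against 583 to 737 CPM), and so were 4 of 8 platelet markers (sums of 389 to 430 CPM against 319 to 351 CPM). In bulk RNA, fewer cells of a type and less RNA per cell cannot be told apart.

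For reference, the upstream sequence of 3 measured members is shown, those whose start site is the same in RefSeq and GENCODE. It is the 250 bases before the start, read 5′ to 3′ on the gene's strand, from RefSeq on GRCm38.p6. Capitals mark matches, on either strand, to any of 5 motifs searched: AP-1 (TGANTCA), an E-box (CACGTG), STAT (TTCNNNGAA), a GC box (GGGCGG) and an octamer (ATGCAAAT).
Cd84 (chr1:171839447-171839696, plus strand): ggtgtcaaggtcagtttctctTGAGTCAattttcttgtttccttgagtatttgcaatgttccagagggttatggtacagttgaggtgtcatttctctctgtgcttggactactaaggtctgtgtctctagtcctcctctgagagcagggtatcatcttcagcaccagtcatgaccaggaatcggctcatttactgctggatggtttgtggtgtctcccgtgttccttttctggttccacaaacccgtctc
Prok2 (chr6:99726393-99726642, minus strand): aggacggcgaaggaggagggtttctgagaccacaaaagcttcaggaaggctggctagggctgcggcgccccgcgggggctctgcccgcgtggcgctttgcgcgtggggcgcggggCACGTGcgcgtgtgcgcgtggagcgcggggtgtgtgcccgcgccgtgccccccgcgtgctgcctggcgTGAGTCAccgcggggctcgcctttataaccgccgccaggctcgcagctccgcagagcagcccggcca
Tgfb1 (chr7:25686752-25687001, plus strand): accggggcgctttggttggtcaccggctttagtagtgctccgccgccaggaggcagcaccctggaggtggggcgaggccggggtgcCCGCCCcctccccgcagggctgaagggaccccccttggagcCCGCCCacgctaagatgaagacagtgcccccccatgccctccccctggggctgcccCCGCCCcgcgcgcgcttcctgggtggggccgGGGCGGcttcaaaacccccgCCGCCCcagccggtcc
The windows differ in composition, with a GC content of 46.8% for Cd84, 73.6% for Prok2 and 75.2% for Tgfb1, against a median of 52.4% over 32851 promoters. Cd84 and Prok2 each hold 1 AP-1 match, a motif in 6.75% of all promoters, and Prok2 also holds an E-box, found in 6.02%. Tgfb1 holds 5 GC boxes and no other match, and a GC box is found in 32.7% of promoters. None of the 3 windows holds the STAT motif, which 7.02% of promoters hold. These matches describe letters only, and no binding was measured.

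In these preparations of bone marrow neutrophils, read in bulk, the suppressive genes fell into 3 tiers. Cd84, Arg2 and Il4ra were at 73.8 CPM or more in every library, Tgfb1 and Prok2 at 13.7 to 27.8 CPM, and the rest at 1.89 CPM or less. A 3′ tag count does not grow with transcript length, so CPM values of different genes are set side by side without division by length. In the WT-labelled libraries the mean levels were 229 ± 5.88 CPM for Cd84, 103 ± 12.3 for Arg2, 82.9 ± 7.87 for Il4ra, 18.4 ± 1.11 for Tgfb1, 16.3 ± 3.54 for Prok2, 1.23 ± 0.518 for Cd274 and 0.373 ± 0.359 for Slc27a2 (SD, n = 3). Arg1 and Nos2 had no count in any library. By mean CPM over all 6 libraries, Cd84 stood at the 94.9th, Arg2 at the 88.8th and Il4ra at the 85.9th percentile of the 10397 genes that passed the filter on low counts, and Cd274 at the 2.3rd. The step from Cd84 to Arg2 was 2.23-fold in the WT-labelled libraries and larger than the spread, since Cd84 exceeded Arg2 in 6 of 6 libraries by 1.65 to 2.6 times. Arg2 was above Il4ra in 6 of 6 libraries by 1.02 to 1.55 times, but the ranges of both genes over all 6 overlapped (89.8 to 133 CPM and 73.8 to 102 CPM). Tgfb1 and Prok2 did not differ in order beyond their spread, Tgfb1 being the higher in 2 of 6 libraries.

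**Figure D1:**
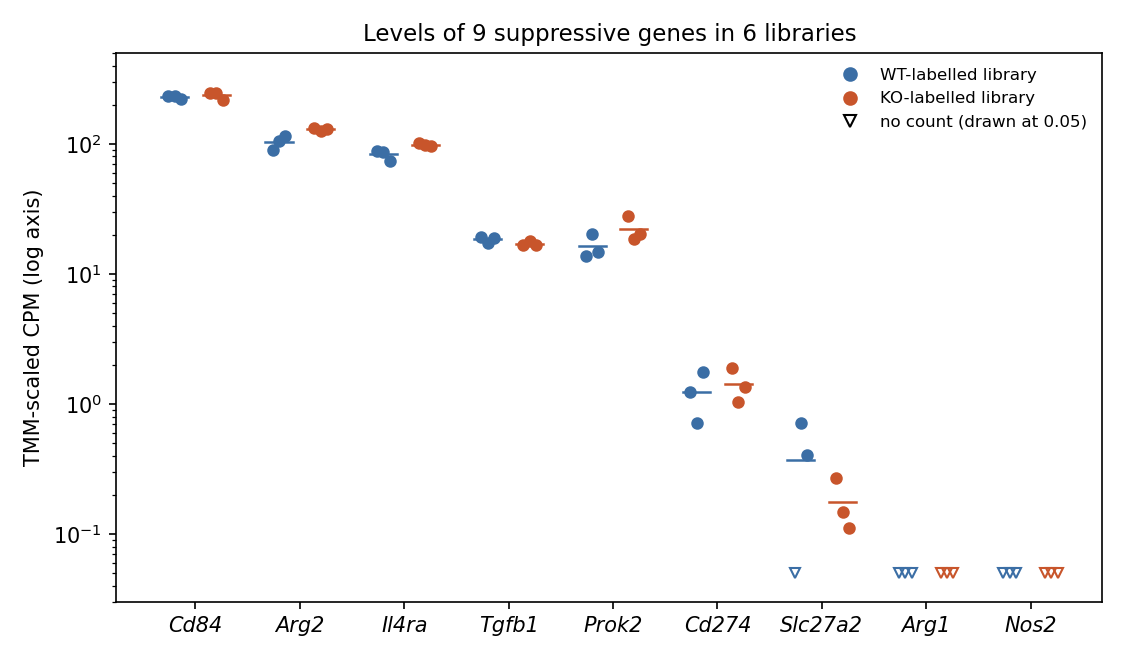
TMM-scaled CPM (log axis) of the 9 suppressive genes, ordered by their mean in the WT-labelled libraries, with 1 point per library and a bar at each group mean. Open triangles stand for libraries with no count. Cd84, Arg2 and Il4ra lie between 73.8 and 248 CPM in every library, and Arg1 and Nos2 have no count in any.

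Of the 3 members that consume arginine, only Arg2 was detected. Arg1, the cytosolic arginase of liver and of alternatively activated macrophages, and Nos2, the nitric oxide synthase induced by interferon and bacterial products, each had 0 of 48634419 counts, which allows a level of up to 0.0617 CPM (3 counts, not scaled by TMM factors, counting error only). Arg2, the mitochondrial arginase, was read 732, 1025 and 847 times in WT 1, 2 and 3, and 986, 848 and 1175 times in the KO-labelled libraries in the same order. Of 5613 arginase counts 0 were of Arg1, which allows a share of up to 0.0534%, so that Arg2 was at least 1870-fold higher than Arg1 against a floor of 3 counts over all 6 libraries.

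Arg2 was at 89.8, 105 and 114 CPM in WT 1, 2 and 3 and at 133, 125 and 131 CPM in KO 1, 2 and 3. On this TMM scale all 3 KO-labelled libraries lay above all 3 WT-labelled ones. By share of the total count the groups overlapped, since WT 3 (847 of 7018388 counts) lay above KO 2 (848 of 7179569 counts). The spread on the TMM scale was wider in the WT-labelled group (coefficient of variation 11.9%) than in the KO-labelled one (3.32%). The log2 fold change was 0.33 (SE 0.09, 95% interval 0.13 to 0.53), or 1.26-fold, with an adjusted p of 0.142 in edgeR's quasi-likelihood test over all genes, so Arg2 did not pass the threshold of 0.05. Its adjusted p was 0.0388 when no filter on low counts was applied and 0.0662 with DESeq2, over a range of 0.0388 to 0.487 in 14 alternatives. With total-count scaling the log2 fold change was 0.23 and the adjusted p 0.328 (edgeR). The last exon of Arg2 (ENSMUSG00000021125, chromosome 12, 79130777 to 79156301, plus strand, GRCm38) runs into exons of Vti1b on the opposite strand, which cover 285 of its last 500 exon bases. Whether the counting used strand is not stated in the sources, so reads of both genes may be mixed. Vti1b itself, which encodes a membrane fusion protein, was at 45.7 ± 2.21 and 44.8 ± 2.58 CPM in the WT- and KO-labelled libraries (SD, n = 3, log2 -0.03, SE 0.1).

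Around these enzymes, 13 of 20 other genes of arginine and nitric oxide metabolism were tested and none passed (edgeR; 1 of 13 had an unadjusted p under 0.05). Their median log2 fold change was -0.13, against 0.0057 over all genes tested, and it was 0.09 without WT 1. The smallest p belonged to Slc3a2, the heavy chain shared by several amino acid transporters, at 97.0 ± 7.17 and 76.5 ± 12.3 CPM (SD, n = 3), with a log2 fold change of -0.34 ± 0.11 (SE) and an adjusted p of 0.206 (edgeR). Asl, which makes arginine from argininosuccinate, was at log2 -0.34 (SE 0.21). The neuronal synthase gene Nos1, also named for its role, was at 0.936 ± 0.302 and 1.3 ± 1.57 CPM (SD, n = 3) and was not tested. Named outside the rule for their role, the cationic amino acid transporter genes Slc7a1 and Slc7a2 were at 2.41 ± 0.36 and 2.67 ± 1.26 CPM in the WT-labelled libraries (SD, n = 3).

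Cd84, the most abundant member, and Il4ra encode surface receptors. Cd84 (ENSMUSG00000038147, chromosome 1, 171839697 to 171890718) encodes a homophilic SLAM family receptor that is found on many leukocytes and platelets, and no annotated exon of another gene overlaps it. It was at 233, 232 and 223 CPM in WT 1, 2 and 3 and at 248, 246 and 216 CPM in KO 1, 2 and 3. The groups overlapped, KO 3 being the lowest of all and the other KO-labelled libraries the highest. With 11276 counts it was the most precisely measured member, and its log2 fold change of 0.04 (SE 0.08) had a 95% interval of -0.13 to 0.22, which bounds a difference between 0.915-fold and 1.16-fold. The sign was the opposite, at -0.06, when libraries were scaled to their total count alone, and with that scaling the median of all genes lay at -0.10.

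Il4ra (ENSMUSG00000030748, chromosome 7, 125552120 to 125579474), which encodes the chain shared by the receptors of interleukin 4 and interleukin 13, was at 88.3, 86.4 and 73.8 CPM in WT 1, 2 and 3 and at 102, 98.7 and 96.0 CPM in KO 1, 2 and 3. As for Arg2, the groups did not overlap on the TMM scale, and the KO-labelled libraries were the higher and the tighter group (coefficients of variation 2.87% and 9.5%). The log2 fold change was 0.25 (SE 0.09, 95% interval 0.06 to 0.44), or 1.19-fold, and did not pass the test (adjusted p = 0.270, edgeR). Without WT 3, the lowest library, it was 0.18, and with total-count scaling 0.15. The predicted gene Gm44876 on the opposite strand overlaps 571 of its exon bases and had no count in any library.

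Around these receptors 1 gene passed the test. None of 10 tested genes of interleukin 4 and 13 receptor signalling passed (edgeR; median 0.10, 1 with an unadjusted p under 0.05). Dok2, an adaptor that restrains kinase signalling, was at log2 -0.38 (SE 0.14), Il13ra1, the partner chain of Il4ra, was at 0.23 (SE 0.13), and Stat6, the transcription factor that these receptors activate, named for that role, was at 0.12 (SE 0.1). In the list of interleukin 4 targets 1 of 4 tested genes fell (edgeR), and it was Mrc1, the mannose receptor of macrophages, at 51.3 ± 3.16 and 22.1 ± 6.1 CPM (SD, n = 3), with a log2 fold change of -1.20 ± 0.16 (SE) and an adjusted p of 0.00104 (edgeR). Clec10a, a macrophage lectin, was at log2 -0.53 (SE 0.42). Mrc1 is also among the 12 macrophage markers, whose summed level was lower in the KO-labelled libraries as given above, and the part of those cells in this result was not tested. In the SLAM family none of 6 tested genes passed (edgeR; 3 with an unadjusted p under 0.05, against 11.4% of all genes tested). Of the 6, 5 lay below 0, as did 5104 of all 10397 genes tested. Cd244a, the receptor 2B4, was the exception at 14.5 ± 3.56 and 23.1 ± 2.71 CPM (SD, n = 3), with a log2 fold change of 0.67 ± 0.18 (SE) and an adjusted p of 0.126 (edgeR). Fyn, a kinase that SLAM adaptors recruit, was at 5.32 ± 0.538 and 1.81 ± 1.13 CPM (SD, n = 3), with a log2 fold change of -1.53 ± 0.42 (SE) and an adjusted p of 0.121 (edgeR). Both passed with no filter on low counts (adjusted p 0.0125 and 0.00790), and Fyn passed narrowly with DESeq2 (0.0499), in ranges of 0.0125 to 0.330 and 0.00790 to 0.386 over the alternatives.

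The secreted factors were present at moderate levels. Prok2 (ENSMUSG00000030069, chromosome 6, 99711299 to 99726392, minus strand) was at 13.7, 20.3 and 14.8 CPM in WT 1, 2 and 3 and at 27.8, 18.7 and 20.2 CPM in KO 1, 2 and 3. KO 1 was the highest, and WT 2 lay above KO 2 and KO 3, so the groups overlapped. It had the largest log2 fold change of the 6 tested members, 0.44 (95% interval 0.03 to 0.84), and also a wide error (SE 0.19, adjusted p = 0.391, edgeR). The value was 0.25 without KO 1 and 0.64 without WT 2. It had 110 to 206 counts per library. Counting alone gives a coefficient of variation of 8.44% in the WT-labelled group, and 21.7% was observed.

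Tgfb1 (ENSMUSG00000002603, chromosome 7, 25687002 to 25705077) was at 19.3, 17.2 and 18.9 CPM in WT 1, 2 and 3 and at 16.6, 17.9 and 16.6 CPM in KO 1, 2 and 3. WT 2 lay inside the range of the KO-labelled libraries. Tgfb1 was the one tested member below 0, at log2 -0.11 (SE 0.15, 95% interval -0.42 to 0.2, adjusted p = 0.848, edgeR), and it lay below 0 in all 14 alternatives. Platelets are a known store of TGF-β1, and 4 of the 8 platelet markers fell in the same libraries. Ppbp (platelet basic protein) went from 59.5 ± 5.17 to 29.1 ± 7.15 CPM (SD, n = 3). Gp1bb, the most abundant platelet marker, was at 237 ± 13 and 246 ± 24.7 CPM (SD, n = 3) and did not pass. The part of platelets in the value of Tgfb1 was not tested.

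Among the other genes of these pathways none of 8 tested angiogenic factor genes passed (edgeR; 1 with an unadjusted p under 0.05, median 0.12, and 0.04 without KO 3, 0.02 with total-count scaling and 0.06 with no filter). Mmp9, the gelatinase that releases matrix-bound factors, was at 6100 ± 162 and 7070 ± 555 CPM (SD, n = 3), with a log2 fold change of 0.21 ± 0.06 (SE) and an adjusted p of 0.174 (edgeR), and Stat3, the factor through which G-CSF signals, was at log2 0.15 (SE 0.07). In the TGF-β pathway none of 17 tested genes passed (edgeR; 2 with an unadjusted p under 0.05, median 0.03, and -0.07 with total-count scaling). Smad3, a signal transducer of the receptors, and Tgfbi, a matrix protein induced by TGF-β, were both at log2 0.22 (SE 0.09).

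Cd274 (ENSMUSG00000016496, chromosome 19, 29367455 to 29388095) lay near the limit of detection, with 10, 7 and 13 counts in WT 1, 2 and 3 and 14, 7 and 12 counts in KO 1, 2 and 3. These are levels of 0.715 to 1.75 CPM and 1.03 to 1.89 CPM, which overlapped. An annotated gene on the opposite strand, not analysed here, shares 511 of its exon bases, none of them among the last 500. The log2 fold change of 0.23 (SE 0.54) had a 95% interval of -0.93 to 1.38, so that differences from 0.527-fold to 2.61-fold could not be resolved at this depth, and it was -0.06 without WT 2 and -0.02 without KO 1. Pdcd1lg2, which encodes the second PD-1 ligand and is named here for that role, was at 0.327 ± 0.337 and 0.0372 ± 0.0644 CPM (SD, n = 3) and was not tested.

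Of 26 other genes of checkpoint ligands and of the interferon γ route that induces PD-L1, 15 were tested and none passed (edgeR). An unadjusted p under 0.05 was found for 4 of the 15, against 11.4% of all genes tested. Their median was 0.04, and -0.06 with total-count scaling. The smallest p values were those of Lilrb4a, an inhibitory receptor, at 548 ± 41.9 and 650 ± 19.5 CPM (SD, n = 3), with a log2 fold change of 0.25 ± 0.08 (SE) and an adjusted p of 0.180 (edgeR), and of Irf1, the interferon-induced factor that acts on the Cd274 promoter, at 163 ± 8.8 and 199 ± 22.6 CPM (SD, n = 3), with a log2 fold change of 0.29 ± 0.09 (SE) and an adjusted p of 0.194 (edgeR). Lilrb4a shares exon bases with a neighbour on its own strand and its counts are uncertain for that reason. Abundant genes of the list, named for their level, included Vsir, the checkpoint ligand VISTA, at 984 ± 85.7 CPM, and Cmtm6, which stabilises PD-L1 protein, at 227 ± 25.4 CPM, both in the WT-labelled libraries (SD, n = 3). The genes of tryptophan-degrading enzymes, Ido1 and Ido2, had no count in any library.

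Slc27a2 (ENSMUSG00000027359, chromosome 2, 126552407 to 126588243) had 0, 7 and 3 counts in WT 1, 2 and 3 and 2, 1 and 1 counts in KO 1, 2 and 3, and did not pass the filter on low counts. Pooled over libraries and scaled to the total count, its level was 0.407 CPM (exact binomial 95% interval 0.195 to 0.748) in the WT-labelled and 0.166 CPM (0.0453 to 0.426) in the KO-labelled group. The ratio was 0.409 with an exact interval of 0.0936 to 1.42, which holds the error of counting alone. The mean difference of log2(CPM + 0.1) was -0.36 (exact permutation, two-sided, p = 0.8), with 7 of the 10 WT-labelled counts in WT 2, and without that library the difference was 0.26.

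The route to prostaglandin E2 was better covered, and the same family only in part. Slc27a4, a relative of Slc27a2 named here for its level, was at 176 ± 4.56 CPM in the WT-labelled libraries (SD, n = 3). The relatives Slc27a1 and Slc27a3, also named for their level, were at 0.327 ± 0.337 and 1.25 ± 0.967 CPM there. Slc27a5 and Slc27a6 had no count. Of 26 tested genes of fatty acid uptake and prostaglandin synthesis 1 fell (edgeR), and the median was 0.04, or -0.05 with total-count scaling. It was Lpl, lipoprotein lipase, at 54.5 ± 6.58 and 28.9 ± 3.73 CPM (SD, n = 3), with a log2 fold change of -0.91 ± 0.13 (SE) and an adjusted p of 0.00157 (edgeR). Ptgs1, the constitutive cyclooxygenase, was at 34.1 ± 0.842 and 25.0 ± 1.83 CPM (SD, n = 3), with a log2 fold change of -0.45 ± 0.12 (SE) and an adjusted p of 0.120 (edgeR), and it passed with total-count scaling (0.0445, in a range of 0.0445 to 0.304). Ptgs2 and Ptges, the inducible enzymes of the route and named for that role, were at log2 -0.12 (SE 0.2) and 0.36 (SE 0.19).

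Across the 6 members tested, 0 passed at an adjusted p under 0.05 with edgeR, DESeq2 or limma-voom, where edgeR called 1.03% of all 10397 genes tested (0.24% higher and 0.789% lower) and DESeq2 called 1.67%. With no filter on low counts 1 of 7 members was called, Arg2, against 1.46% of 19659 genes. With total-count scaling 144 of 162 called genes were lower, against 82 of 107. The members were chosen with earlier results of these data known, so the shares given for them here are descriptions. At an unadjusted p under 0.05 there were 3 of the 6 (Arg2, Il4ra and Prok2), against 11.4% of all genes tested. On the TMM scale the groups did not overlap for 2 of the 6 (Arg2 and Il4ra, both higher in the KO-labelled libraries). This was so for 16.8% of all genes tested in either direction and for 7.48% with the KO-labelled libraries higher. By share of the total count the groups of Arg2 overlapped, as given above. Of the 6, 5 had a log2 fold change above 0, with a median of 0.24. With total-count scaling 4 of the 6 lay above 0 and the median was 0.14, and without KO 1 it was 0.12. The 3 other members, Arg1, Nos2 and Slc27a2, had too few counts for the fit.

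**Figure D2:**
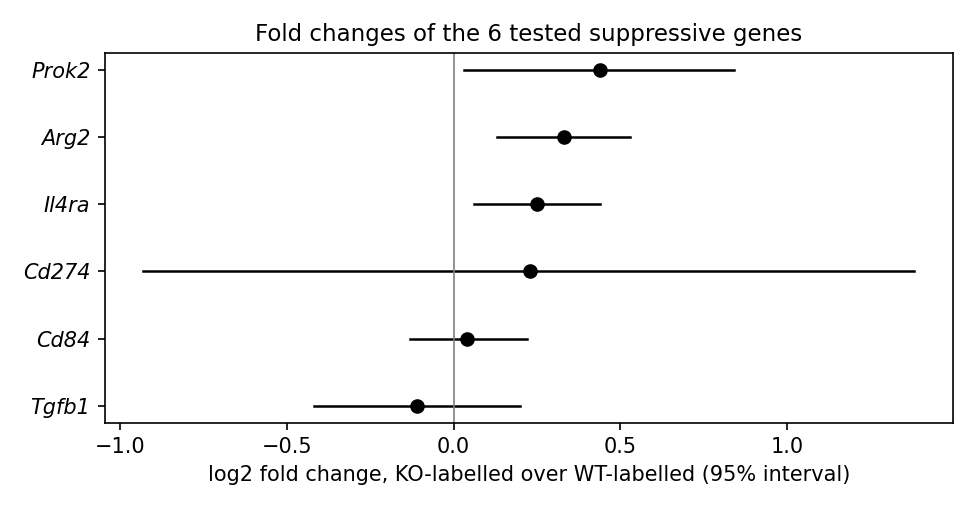
Log2 fold change of the 6 tested members, KO-labelled over WT-labelled libraries, with 95% intervals from edgeR's fit (n = 3 a group). The interval of Cd84 (-0.13 to 0.22) is the narrowest, followed by those of Il4ra (0.06 to 0.44) and Arg2 (0.13 to 0.53). That of Cd274 spans -0.93 to 1.38, and no member passed the test after adjustment over all genes.

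Other genes linked to suppressive neutrophils were examined in the same fit. Their list of 28 was chosen with earlier results of these data known, so the shares given for it are descriptions. Of 25 tested genes of this kind outside the members, 20 had a log2 fold change above 0, 17 had an unadjusted p under 0.05 (11.4% of all genes tested did), and the groups did not overlap for 13 (16.8% of all). After adjustment 1 rose, S100a8, a subunit of calprotectin, from 116000 ± 6650 to 137000 ± 6260 CPM (SD, n = 3), with a log2 fold change of 0.24 ± 0.05 (SE) and an adjusted p of 0.0315 (edgeR). Its call ended with upper-quartile or total-count scaling (0.0502 and 0.0970) and without WT 1, WT 3, KO 1 or KO 2 (0.144, 0.0617, 0.102 and 0.127). The other subunit, S100a9, was at log2 0.20 (SE 0.04, adjusted p = 0.0518, edgeR). It passed with limma-voom (0.0389), with no filter (0.00442), with the replicate block (0.0256) and without WT 2 or KO 3 (0.0467 and 0.0312), and its adjusted p reached 0.249 without WT 1. S100a8, S100a9, Cxcr2, Ngp and Cd177 are in the list of neutrophil markers too. Of the 14 such markers 13 had a log2 fold change above 0, and 2 rose in the edgeR test, S100a8 and Retnlg (log2 0.35, SE 0.05). The summed level of these markers was 288000 to 309000 CPM under the WT and 329000 to 351000 CPM under the KO label, and their median log2 fold change was 0.11, or 0.01 with total-count scaling, where 6 of the 14 lay below 0. The part of this difference in the values of the suppressive genes was not tested. The median of the list was 0.20, and 0.09 with total-count scaling. Of 18 tested transcription factor genes of suppressive myeloid cells 1 fell, Irf8, which drives monocyte and dendritic cell fates, from 35.0 ± 2.28 to 17.3 ± 1.57 CPM (SD, n = 3), with a log2 fold change of -1.01 ± 0.13 (SE) and an adjusted p of 0.00104 (edgeR). Macrophage markers fell in the same libraries (11 of 12, median -1.06), and their part in the values of Irf8 and Lpl was not tested. The median of these factors was 0.07, and -0.04 with total-count scaling. Mrc1, Lpl and Irf8 kept their calls in all 14 alternatives.

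**Figure D3:**
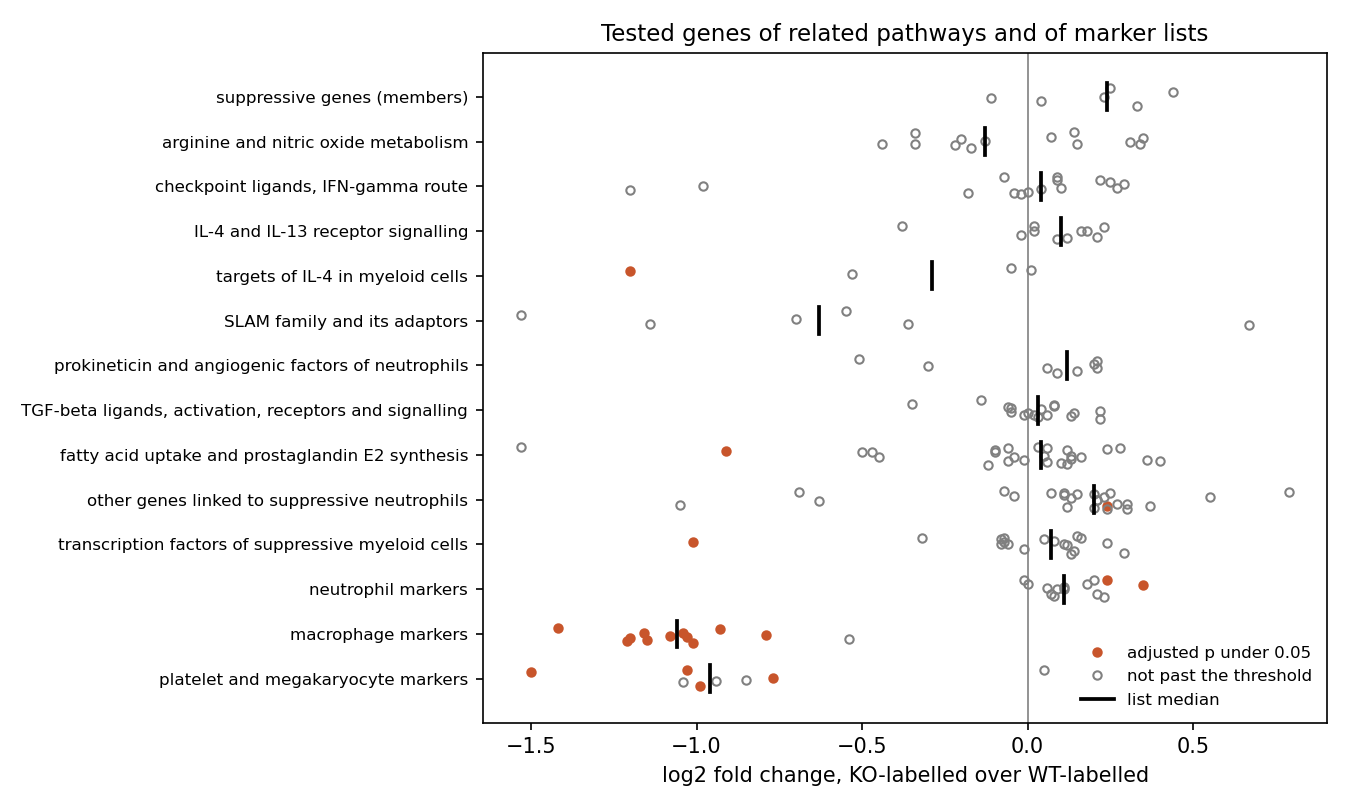
Log2 fold changes, KO-labelled over WT-labelled libraries, of the tested genes of each pathway list and of 3 marker lists, with 1 point per gene, filled where edgeR's adjusted p was under 0.05, and a bar at the list median. The 6 tested members have a median of 0.24 and none is filled, while 11 of 12 macrophage markers are filled with a median of -1.06.

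Markers of other cells that carry some of these genes were read in the same libraries. The monocyte list had none of 8 genes past the test (3 with an unadjusted p under 0.05, against 11.4% of all genes tested), and 6 of 8 lay below 0. Its median was -0.18 (-0.04 without WT 2, -0.08 without KO 1), with sums of 1600 to 1800 CPM against 1640 to 1780 CPM. It was led by Ly6c2 at 1380 ± 112 and 1440 ± 76.0 CPM and Csf1r at 184 ± 13.8 and 182 ± 17.8 CPM (SD, n = 3). Named for their size, Ctss and Ms4a6c were at log2 -0.44 (SE 0.12) and -0.83 (SE 0.28). Vcam1 and C1qb, the most abundant macrophage markers by the mean over all 6 libraries, fell by 1.03 and 0.93 on the log2 scale. All 12 macrophage markers were detected, and neither Arg1 nor Nos2 was. None of 8 markers of immature neutrophils passed (median -0.17), and 6 of the 8 lay below 0, or 4 of 8 without WT 1, with a median of -0.03. The most abundant, Chil3 and Fcnb, were the exceptions at log2 0.01 and 0.08, and the lowest, named for its size, was Mpo at -0.59 (SE 0.19, adjusted p = 0.193, edgeR). Gp1bb, the most abundant platelet marker, was at log2 0.05, and its exons overlap other genes on its strand. The dendritic cell and MHC class II list had none of 5 tested genes past the test (median -0.40, H2-Aa at -0.21 and H2-Eb1 at -0.40), and the T and NK cell list none of 3 (median -0.79, Cd3d at 0.27 and Cd4 at -0.80). The T cell genes Cd3e, Cd8a and Trbc2, named for their role, had means of 0.77 CPM or less under either label and were not tested. Of 4 tested eosinophil and basophil markers 1 fell (median -0.57, Ccr3 at -1.15, Prg2 at 0.01), and none of 8 erythroid markers passed (median 0.13, Hbb-bs and Hba-a1 at 0.16). Of 8 B cell and plasma cell markers 2 rose (median -0.10), with Igkc at 391 ± 233 CPM under the KO and 138 ± 20.7 CPM under the WT label (SD, n = 3) and Ighm at log2 -0.20. The part of any of these cells in the values of Arg2, Il4ra, Prok2, Cd84 and Tgfb1 was not tested.

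The genes whose profile over the 6 libraries lay closest to each member were found by the root mean square difference of log2 CPM, each gene centred on its mean, among tested genes within 2-fold of the member's level. Trem3, a receptor gene of myeloid cells, lay close to Arg2 at 0.069, where the median of 1521 genes was 0.209. Msrb2 (0.038) lay closest to Il4ra, Rab14 (0.026) and Atp11b (0.027) to Cd84, and Phrf1 (0.029) and Secisbp2 (0.034) to Tgfb1. Prok2, the most variable of the 5, had Afdn (0.088) and Dld (0.115) as its nearest genes, against a median of 0.367. With 6 libraries many genes share a profile by their group difference alone, so these distances are descriptions.

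**Figure D4:**
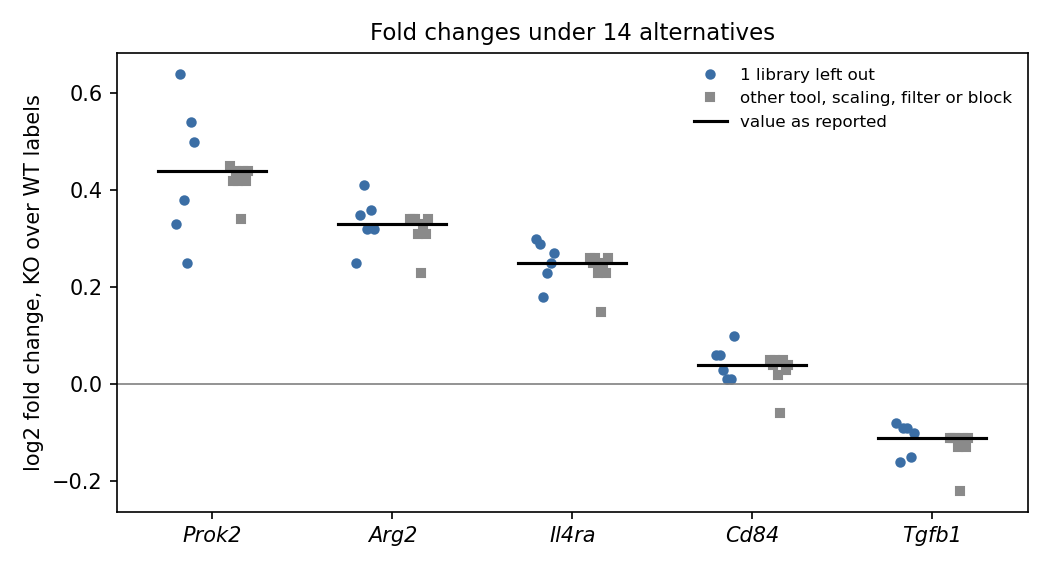
Log2 fold change of 5 members as reported (bar), with 1 library left out (circles) and with another tool, scaling, filter or the replicate number as a block (squares). Arg2 stays between 0.23 and 0.41, Il4ra between 0.15 and 0.3 and Prok2 between 0.25 and 0.64, all above 0, while Cd84 crosses 0 with total-count scaling at -0.06.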

How the data were processed

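The deposited values are unscaled read counts for each Ensembl gene. Per the submitters' processing notes, which give no roles, RSEM 1.2.3, DESeq2 and mm10 were used. The aligner, annotation and strand setting were not given in the sources used. RSEM can divide reads between similar genes. Columns were matched to samples by name. Names and coordinates came from GENCODE vM21 (GRCm38) for 51596 of 51789 identifiers, and RefSeq promoters matched 6 of the 9 members. 

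Counts were tested with edgeR 4.0.16 in R 4.3.3 (quasi-likelihood, TMM factors, filterByExpr with a minimum count of 10 and a minimum total count of 15, the group as the one term, all 6 libraries), with Benjamini-Hochberg adjustment over 10397 genes and a threshold of 0.05. Standard errors are the fold change divided by the square root of F. Exact intervals are 95%, and floors are 3 counts. One count was worth 0.103 to 0.142 CPM. No pair of replicates agreed within sampling noise (chi-square per degree of freedom 4.12 to 6.79). Pathway genes are given by counts and medians. The text names the members, Snph, the 2 genes of smallest p and any called gene of each pathway list, the 2 most abundant genes (over all 6 libraries) of each marker list and the nearest profiles (for members at 5 CPM or more, without predicted or ribosomal protein genes). Others are said to be outside this rule, and 2 of the nearest profiles are not reported here. The fits were repeated with DESeq2 1.42.0, limma-voom (limma 3.58.1), RLE, upper-quartile or total-count scaling, no filter, a stricter one (5 CPM or more in 3 libraries), a block for the replicate number, each library left out and a pseudocount of 0.5 for 0.1. The procedure was tested on simulated data with the same dispersion for every gene. Changes were planted only in genes above a set count, so the simulation does not cover low counts such as those of Cd274. The members and lists were chosen with earlier results of these data known.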

Additional observations from a re-analysis of the deposited data

How the results depend on the processing

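Depth and 3 libraries a group limit what could be resolved, most for Cd274 and Slc27a2. No member passed the test in any alternative except Arg2 with no filter on low counts, where 1 of 7 tested members was called. The sign turned for Cd84 with total-count scaling (-0.06), for Cd274 without WT 2 (-0.06) or KO 1 (-0.02), with left-out values from -0.06 to 0.56, and for Slc27a2 without WT 2, with left-out values from -1.26 to 0.26. Cd274 gave no value under the stricter filter. The difference for Snph ran from 2.47 to 3.13 with a library left out. Over all genes 107 were called, 174 with DESeq2, 162 with total-count scaling and 287 with no filter. Without WT 1, 2 or 3 there were 57, 49 and 62 calls, and without KO 1, 2 or 3 there were 67, 61 and 97, in fits with fewer samples. Other causes were not tested. The samples share only a replicate number: deviations of same-numbered samples correlated at -0.0262, -0.0118 and -0.131, and no sample correlated best with its own number. With the replicate block 92 genes and 0 members were called, with Arg2 at an adjusted p of 0.178 (edgeR) and S100a9 past the threshold at 0.0256. With the interleukin 4 targets, the list median was 0.01 without WT 3, where 5 genes were tested.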

Other observations

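Among the 25 other genes linked to suppressive neutrophils, 5 lay on the other side of 0 from the calprotectin genes, and those named here were chosen after their values were seen. Olr1, which encodes the oxidised lipoprotein receptor LOX-1, known as a surface mark of suppressive neutrophils in human blood, had a mean of 9.71 ± 1.98 CPM under the WT label and of 4.69 ± 0.847 CPM under the KO label (SD, n = 3). Its log2 fold change was -1.05 (SE 0.24), the groups did not overlap, and it did not pass the test (adjusted p = 0.0585, edgeR). Macrophage markers fell in the same libraries (11 of 12, median -1.06), and their part in the value of Olr1 was not tested. The chemokine genes Ccl3 and Ccl4 were at log2 -0.69 (SE 0.28) and -0.63 (SE 0.28), with adjusted p of 0.350 and 0.405 (edgeR). On the other side, Clec4d, a C-type lectin receptor, and Junb, an AP-1 subunit, were at log2 0.37 (SE 0.09, adjusted p = 0.0801, edgeR) and 0.30 (SE 0.07, adjusted p = 0.0745, edgeR).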
